A study of Homo sapiens with 12 samples.

Results

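Protein folding in the endoplasmic reticulum (ER) and the unfolded protein response were followed through 38 human genes, chosen by name as ER chaperones, disulfide isomerases, genes of ER-associated degradation and sensors of the response. Each gene was read from the probe set that is annotated to its symbol alone and has the highest mean over the 12 arrays. Of the 38 genes, 35 had such a probe set, and 34 passed the filter on low levels, among 11774 genes tested in all. PDIA5, TXNDC5 and SYVN1 were carried by probe sets with several symbols, and DERL3, a derlin of the degradation channel, had a mean log2 level of 3.48, under the filter of 3.78. The 38 genes hold 11 of oxidative folding, 10 chaperones and co-chaperones, 10 of ER-associated degradation, 4 sensors and transcription factors, 2 lectin chaperones and 1 subunit of the translocon.

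The RNA came from SH-SY5Y cells, a human neuroblastoma line used as a neuron-like model, grown in D-MEM/F-12 medium. Per the labels there were 4 groups of 3 arrays: oligomeric amyloid-β (Aβ, the peptide of Alzheimer's plaques) incubated for 6 h, the 6 h control, fibrillar Aβ incubated for 24 h, and the 24 h control. All groups share a single cell line, with no named genotype or transgene. The form of Aβ and the hours always changed together and cannot be told apart. Whether the hours count the preparation of the peptide or the time on the cells is not given in the labels, nor is what the controls received. Nothing says that replicates were separate cultures, so the p-values stand for the spread among these arrays alone, which may be technical. All levels are log2 MAS5 signals, whose trimmed mean was equal on all arrays, and a change is a difference of group means on that log2 scale with its standard error (SE). A call is an adjusted p under 0.05 by limma over all 11774 genes.

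Newly made secreted and membrane proteins enter the ER through the translocon, are held by the chaperone BiP (HSPA5) and its J-domain partners, and gain disulfide bonds from protein disulfide isomerases. Glycoproteins cycle on calnexin and calreticulin, and proteins that fail to fold are taken out for degradation. When unfolded protein builds up, the sensors ATF6, IRE1 (ERN1) and PERK (EIF2AK3) act: ATF6 and spliced XBP1 raise the transcription of chaperone genes, and PERK slows translation while ATF4 and CHOP (DDIT3) are made.

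Many of these genes carry an ER stress element near their start, a site known to be bound by NF-Y at its CCAAT end and by ATF6 or XBP1 at its CCACG end. In RefSeq windows of GRCh38.p14, from 250 bases before to 50 bases after each annotated start and searched on both strands, the letters CCAAT, 9 bases of any kind and then CCACG stood in 8 of 35 genes of the list with a window (22.9%) and in 25 of all 27305 genes (0.0916%). They are shown because 6 of these 8 genes were called lower at 24 h than at 6 h below. Each line gives the gene's own strand, and capitals mark the letters that the motif fixes.
HSPA5, chr9:125241386-125241414, minus strand: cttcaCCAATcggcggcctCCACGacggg
CALR, chr19:12938379-12938407, plus strand: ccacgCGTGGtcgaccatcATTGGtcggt
CANX, chr5:179698773-179698801, plus strand: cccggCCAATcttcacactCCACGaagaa
CRELD2, chr22:49918549-49918577, plus strand: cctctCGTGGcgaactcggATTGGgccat
PDIA6, chr2:10812848-10812876, minus strand: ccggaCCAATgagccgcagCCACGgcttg
XBP1, chr22:28800598-28800626, minus strand: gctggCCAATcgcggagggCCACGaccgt
HSP90B1, chr12:103930211-103930239, plus strand: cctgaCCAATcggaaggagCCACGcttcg
HSP90B1, chr12:103930316-103930344, plus strand: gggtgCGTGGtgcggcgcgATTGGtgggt
ERO1B, chr1:236282178-236282206, minus strand: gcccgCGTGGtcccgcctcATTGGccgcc

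The 150 bases that end at the annotated start of HSPA5 (chr9:125241344-125241493, minus strand) show where the exact match lies, with its first letter 66 bases before the start. Looser forms of the element were not searched for and are not marked.
HSPA5 upstream: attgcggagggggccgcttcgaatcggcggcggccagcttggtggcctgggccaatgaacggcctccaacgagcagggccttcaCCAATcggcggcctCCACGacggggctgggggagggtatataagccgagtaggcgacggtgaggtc

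A shorter form, ER stress element II with the letters ATTGG, 1 base of any kind and then CCACG, was searched for after the first search was seen. It stood in HERPUD1, HYOU1 and SDF2L1, 3 of 35 genes (8.57%), and in 19 of 27305 (0.0696%). HYOU1, which was called lower at 24 h, has it at 2 places.
HERPUD1, chr16:56932020-56932040, plus strand: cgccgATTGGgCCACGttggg
HYOU1, chr11:119057375-119057395, minus strand: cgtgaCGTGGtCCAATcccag
HYOU1, chr11:119057269-119057289, minus strand: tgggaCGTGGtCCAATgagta
SDF2L1, chr22:21642109-21642129, plus strand: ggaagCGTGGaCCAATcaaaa

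The UPR element core TGACGTGG stood in DNAJC10, HYOU1 and TXNDC5 (8.57% of the list against 0.927% of all genes), and in HYOU1 it overlaps the upstream element II. These matches describe letters in a window, and no binding was measured here.

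The arrays of a group correlated between 0.978 and 0.985 over all probe sets, and no pair of columns was identical. Of 10 noradrenergic neuroblastoma markers, 8 passed the filter, while TH, the first enzyme of catecholamine synthesis, had a mean log2 level of 0.73. Of the mesenchymal or fibroblast markers 6 of 7 passed, with mean log2 levels of 8.14 to 8.30 on the fibrillar arrays, 8.30 to 8.44 on the 24 h controls, 8.19 to 8.35 on the oligomeric arrays and 8.19 to 8.40 on the 6 h controls. Of the epithelial markers 1 of 3 passed, of the blood or endothelial markers 1 of 4 and of the glial markers 0 of 4. Between the 24 h and the 6 h controls 2 of 8 noradrenergic markers were called lower and 0 higher, with changes of −0.50 to 0.43. Of 6 mesenchymal markers 1 was called higher and 0 lower, with changes of −0.78 to 0.74. Of all genes 7.92% were called lower and 3.76% higher. No marker was called with either form of Aβ. The part of the markers in the results was not tested.

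The mean of the 34 genes on an array, each set relative to its own mean over the 12 arrays, parted the times. It lay between −0.15 and −0.12 on the 24 h controls, against 0.11 to 0.12 on the 6 h controls. On the fibrillar arrays it was −0.01, −0.15 and 0.01 for replicates 1, 2 and 3, so replicate 2 lay apart from the other two, beside the 24 h controls. The oligomeric arrays had 0.10, 0.04 and 0.09, all under the 6 h controls. The 3′ less 5′ signal of GAPDH and ACTB, a sign of RNA quality, moved with the same groups. Its mean log2 value was 1.94, 1.48 and 1.71 with fibrils and 1.43 to 1.58 on the 24 h controls. It was 1.63 to 1.80 on the oligomeric arrays and 1.80 to 2.04 on the 6 h controls.

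**Figure D1:**
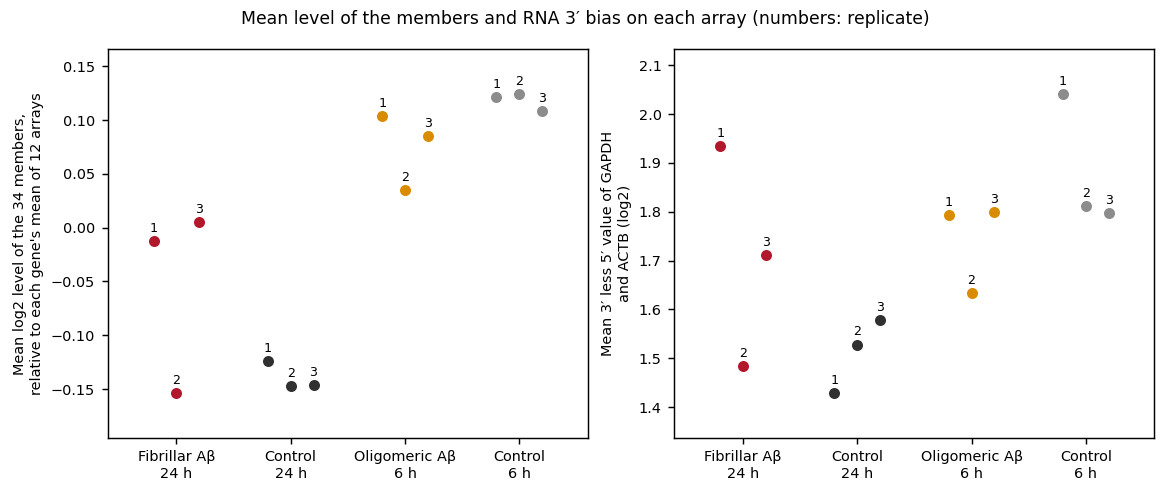
Left, the mean log2 level of the 34 tested genes on each array relative to each gene's mean over 12 arrays. Right, the mean 3′ less 5′ log2 value of GAPDH and ACTB. Points are arrays, numbered by replicate, in 4 groups of 3. In the left panel the 24 h controls lie between −0.15 and −0.12 and the 6 h controls between 0.11 and 0.12, with fibrillar replicate 2 at −0.15.

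Control cells at 24 h had lower levels of ER chaperone and folding genes than control cells at 6 h. By limma, 12 of the 34 genes were called lower (35.3%, where 7.92% of all tested genes were) and 0 were called higher (0%, where 3.76% of all tested genes were). No gene of the list was higher at an unadjusted p under 0.05 either (0%, 10.8% of all genes). The calls took in 5 of 10 chaperones and co-chaperones, 2 of 2 lectin chaperones, 4 of 9 genes of oxidative folding and XBP1 among the 4 sensors and transcription factors. They took in 0 of 8 genes of ER-associated degradation and 0 of 1 translocon gene. Over the 34 genes the median change was −0.20, against −0.02 over all genes tested, and 27 were lower (79.4%, 52.6% of all genes). In 22 of them all 24 h controls lay below all 6 h controls (64.7%, where 18.9% of all genes did), and in 2 all lay above (5.88%, where 13.7% did). For 20 of the 34 genes, 39 other probe sets with 1 symbol passed the filter, and 22 of these 39 had the sign of the probe set used. For the 12 called genes 12 of 16 did, with 4 called lower and 1 higher over all probe sets. In RNA from whole cultures, fewer cells of a kind and less RNA per cell cannot be told apart, and the hours and any batch of the arrays cannot be told apart either.

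HSPA5, which encodes BiP, had 11.47, 11.41 and 11.48 in the 24 h controls, against 12.04, 12.14 and 12.07 in the 6 h controls. The groups did not overlap, and the level fell to 64.5% of that at 6 h (−0.63, SE 0.07, adjusted p = 6.99e-05). HYOU1, a large ER chaperone that helps BiP exchange its nucleotide, had 7.57, 7.62 and 7.56 at 24 h, against 8.19, 8.29 and 8.27 at 6 h (−0.67, SE 0.09, adjusted p = 0.000295). SIL1, another exchange factor of BiP, had the change of greatest size among the 34 genes, with 4.74, 4.82 and 4.99 at 24 h, against 6.01, 5.68 and 5.85 at 6 h. That is 50.1% of the 6 h level (−1.0, SE 0.21, adjusted p = 0.00591). SIL1 was also the dimmest of the 34 genes, with a mean log2 level of 5.32 on its 1 probe set. It was not among the genes called in every alternative. For these partners of BiP, as for BiP itself, no 24 h control reached the lowest 6 h control.

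MANF, an ER-resident and secreted factor that binds BiP, had 9.88, 10.05 and 9.88 at 24 h, against 10.54, 10.56 and 10.37 at 6 h (−0.56, SE 0.08, adjusted p = 0.000497). DNAJC3, a J-domain co-chaperone, had 8.15, 8.21 and 7.99 at 24 h, against 8.52, 8.42 and 8.52 at 6 h (−0.37, SE 0.09, adjusted p = 0.0142). Both were apart between the groups. The call of DNAJC3 stood in 4 of 6 fits that left out a single array.

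The other 5 chaperones and co-chaperones were not called. HSP90B1, the ER member of the HSP90 family, had 10.13, 10.08 and 9.89 at 24 h, against 10.14, 10.20 and 10.13 at 6 h, groups parted by a narrow gap (−0.13, SE 0.07, adjusted p = 0.295). This value is from a probe set with a mean of 10.01. A brighter probe set shared by HSP90B1 and other symbols had a mean of 12.15 and a change of −0.36 (adjusted p = 0.00374 over all probe sets past the filter). SDF2L1, which works with J-domain proteins on BiP's clients, had 7.64, 7.79 and 7.66 at 24 h, against 7.96, 8.16 and 7.94 at 6 h (−0.32, SE 0.11, adjusted p = 0.0773), groups that did not overlap. DNAJB9, a J-domain protein that holds IRE1 inactive together with BiP, had 8.29, 8.11 and 8.32 at 24 h, against 8.19, 7.87 and 8.0 at 6 h (0.22, SE 0.13, adjusted p = 0.316). Its groups overlapped.

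Both lectin chaperones, which hold glycoproteins by a trimmed sugar, were lower. CALR, the soluble calreticulin, had 8.29, 8.57 and 8.36 at 24 h, against 9.09, 9.30 and 9.20 at 6 h (−0.79, SE 0.10, adjusted p = 0.000122). CANX, the membrane-bound calnexin, had 10.85, 10.83 and 10.94 at 24 h, against 11.22, 11.25 and 11.14 at 6 h (−0.32, SE 0.06, adjusted p = 0.00311). The other probe sets of the 2 genes went different ways: both others of CALR had the same sign, while of 3 others of CANX past the filter 1 was called higher (0.38, adjusted p = 0.039 over all probe sets).

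Among the genes of oxidative folding, PDIA4, a large ER disulfide isomerase, had 10.57, 10.52 and 10.56 at 24 h, against 11.13, 11.20 and 11.07 at 6 h (−0.59, SE 0.06, adjusted p = 6.17e-05). P4HB, the classical protein disulfide isomerase, had 9.72, 10.05 and 9.58 at 24 h, against 10.64, 10.80 and 10.57 at 6 h (−0.89, SE 0.11, adjusted p = 0.000119). CRELD2, an ER protein induced by stress, had 9.44, 9.26 and 9.46 at 24 h, against 9.98, 9.85 and 9.80 at 6 h (−0.49, SE 0.08, adjusted p = 0.000827). All 3 were apart between the groups. PDIA6, a disulfide isomerase that also acts on the sensors, had 11.39, 11.41 and 11.36 at 24 h, against 11.58, 11.72 and 11.58 at 6 h (−0.24, SE 0.06, adjusted p = 0.0256). The PDIA6 call stood in 2 of 6 fits that left out a single array. The 2 dimmer probe sets of P4HB changed by −0.04 and 0.50, neither called, so the fall of P4HB rests on the brightest of 3 probe sets.

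Of the sensors, the message of XBP1, which IRE1 splices into an active transcription factor, had 7.99, 8.17 and 8.07 at 24 h, against 8.78, 8.56 and 8.88 at 6 h (−0.66, SE 0.12, adjusted p = 0.00208). The groups were apart, but its other, dimmer probe set changed by 0.05. The arrays do not part spliced from unspliced XBP1. The other 3 genes were not called. ATF6 changed by 0.18 (SE 0.10, adjusted p = 0.284), ERN1 by −0.02 (SE 0.14, adjusted p = 0.957) and EIF2AK3 by 0.02 (SE 0.12, adjusted p = 0.947).

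Of the 8 genes of ER-associated degradation 6 were lower, with changes of −0.38 to 0.18 and a median of −0.16. HERPUD1, a stress-induced scaffold of the degradation ligase, changed by −0.19 (SE 0.09, adjusted p = 0.193), and EDEM1, which directs mannose-trimmed glycoproteins to degradation, by −0.21 (SE 0.08, adjusted p = 0.119). SEC61B, a subunit of the translocon, changed by −0.18 (SE 0.09, adjusted p = 0.213). None of these passed the threshold, and their difference from the genes that passed was not tested.

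**Figure D2:**
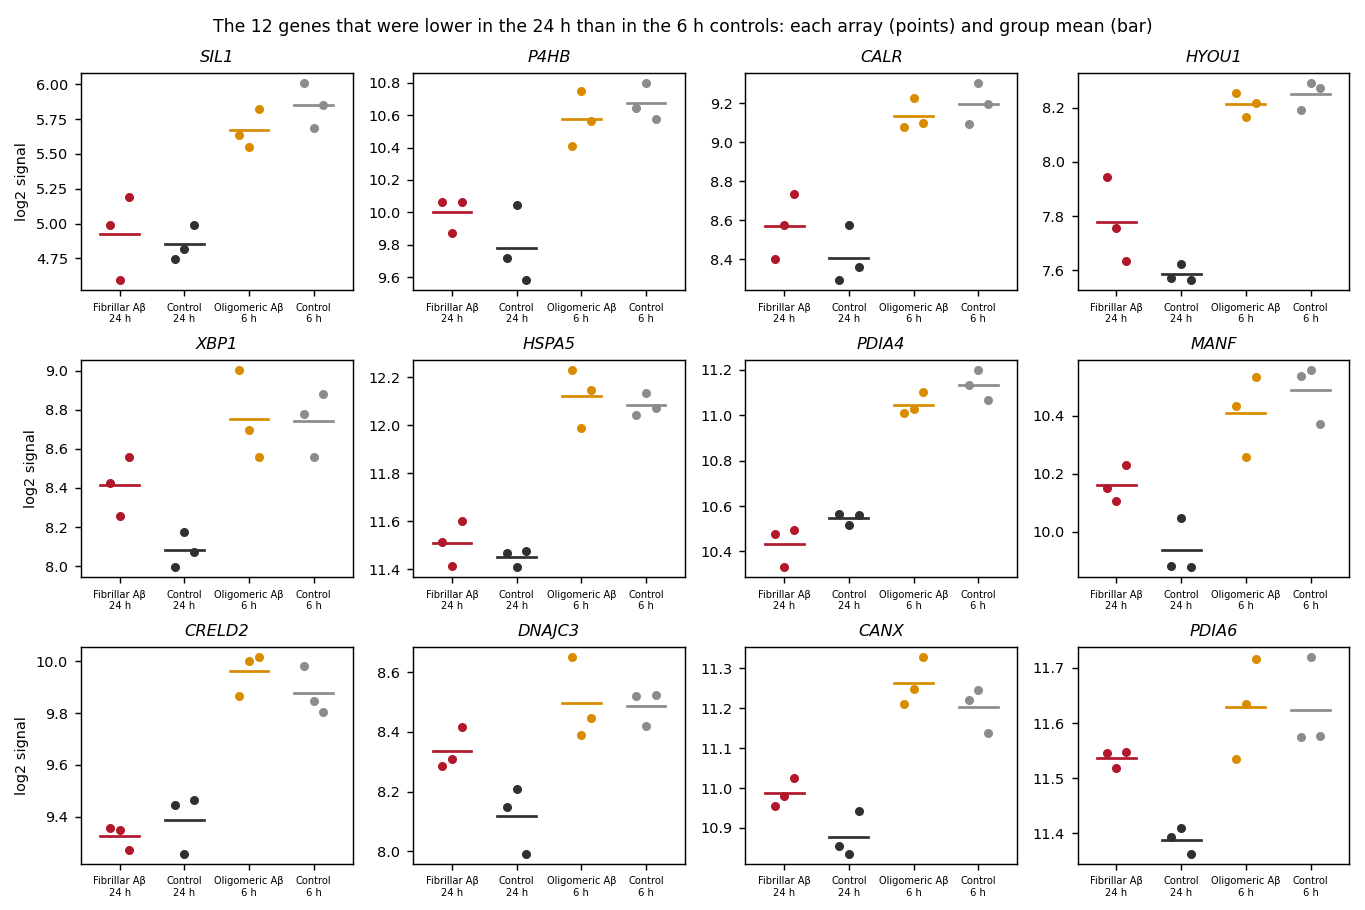
Log2 signal on each array (points) and group mean (bar) for the 12 genes called lower in the 24 h than in the 6 h controls. In each panel the groups are, left to right, fibrillar Aβ at 24 h, control at 24 h, oligomeric Aβ at 6 h and control at 6 h, each of 3 arrays. HSPA5 lies between 11.41 and 11.60 on the 24 h arrays and between 11.99 and 12.23 on the 6 h arrays.

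With the Aβ arrays added, all 6 arrays of 24 h lay below all 6 arrays of 6 h for 10 of the 34 genes (29.4%, where 7.35% of all genes did) and above for 0 (where 4.11% did). Of these 10, 9 were among the 12 calls: HSPA5, HYOU1, SIL1, MANF, CALR, CANX, P4HB, PDIA4 and CRELD2. The other was OS9, a lectin of the degradation complex named after its values were seen, with 7.08, 7.21 and 7.16 on the fibrillar arrays and 7.18, 7.06 and 7.21 on the 24 h controls, against 7.30, 7.39 and 7.44 on the oligomeric arrays and 7.30, 7.60 and 7.55 on the 6 h controls. OS9 was not called between the controls (−0.33, SE 0.11, adjusted p = 0.0553).

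Split by the promoter letters shown above, the 11 tested genes with either ER stress element had 7 calls at a median change of −0.32. The 21 tested genes with a window and neither element had 5 calls at a median of −0.14. Of the genes with an element, HSPA5, CALR, CANX, CRELD2, PDIA6, XBP1 and HYOU1 were called, and HSP90B1, ERO1B, HERPUD1 and SDF2L1 were not. This split is a description with no test, and it draws nothing about the factors.

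The 3′ less 5′ value was lower in the 24 h than in the 6 h controls. With it as a covariate, 7 of the 34 genes were called lower and 1 higher, DNAJB9 (0.66, adjusted p = 0.0166). Over all 11774 genes that fit called 308 lower and 159 higher, against 932 and 443 without the covariate. HSPA5, HYOU1, MANF, CALR, PDIA4 and CRELD2 were called lower in every alternative setting and every fit without an array.

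With fibrillar Aβ, 0 of the 34 genes were called against the 24 h controls (0%), where 1.19% of all tested genes were, 0.798% higher and 0.391% lower. At an unadjusted p under 0.05, limma placed 10 genes higher (29.4% of the list, 8.11% of all genes) and 3 lower (8.82%, 6.07% of all genes). Of the 34 genes 25 had the higher mean with fibrils (73.5%, 49.9% of all genes), and the median change was 0.12, against −0.00053 over all genes. All fibrillar arrays lay above all 24 h controls for 9 genes (26.5%, 10.9% of all genes) and below for 3 (8.82%, 8.73% of all genes). These shares describe the list as read from 1 probe set a gene, and each single gene missed the threshold. For 20 of the genes, 39 other probe sets with 1 symbol passed the filter. Of these 39, 19 had the sign of the probe set used, so the shares rest on the probe sets chosen. The 24 h controls also enter the change between the controls above, with the opposite sign. Low values on these arrays would make that change more negative and the change with fibrils more positive. The changes are thus not independent results, and the part of the shared arrays was not tested.

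Among the sensors, EIF2AK3, the gene of PERK, had 10.21, 9.81 and 10.17 with fibrils, against 9.84, 9.67 and 9.67 in the 24 h controls (0.34, SE 0.12, adjusted p = 0.188). The groups overlapped through fibrillar replicate 2. Without that array the change was 0.46 and was called (adjusted p = 0.0468). That fit called 140 of all genes higher and 45 lower, against 94 and 46 with every array. XBP1 had 8.42, 8.25 and 8.56 with fibrils, against 7.99, 8.17 and 8.07 in the controls, groups that did not overlap (0.33, SE 0.12, adjusted p = 0.204). Its dimmer probe set had the opposite sign (−0.27, adjusted p = 0.63 over all probe sets). ATF6 changed by 0.11 (SE 0.10, adjusted p = 0.704) and ERN1 by 0.09 (SE 0.14, adjusted p = 0.841), so all 4 means were higher and none passed.

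HSPA5 had 11.51, 11.42 and 11.60 with fibrils, against 11.47, 11.41 and 11.48 in the 24 h controls. The groups overlapped, and the change was 0.06 (SE 0.07, adjusted p = 0.781), with a 95% interval of −0.09 to 0.21. HSP90B1 had 9.72, 9.85 and 9.69 with fibrils, against 10.13, 10.08 and 9.89 in the controls, groups that did not overlap (−0.28, SE 0.07, adjusted p = 0.0854). It had the smallest p of the list, and with array weights it was called (−0.29, adjusted p = 0.0454). Array weights called 181 of all genes higher and 87 lower, against 94 and 46 as reported. The brighter probe set that HSP90B1 shares with other symbols had 0.09 (adjusted p = 0.638 over all probe sets), and the other 2 probe sets had −0.16 and −0.12, so 3 of 4 share the negative sign.

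Among the other chaperones, MANF had 10.15, 10.11 and 10.23 with fibrils, against 9.88, 10.05 and 9.88 in the controls (0.23, SE 0.08, adjusted p = 0.21). SDF2L1 went the other way, with 7.62, 7.25 and 7.34 with fibrils, against 7.64, 7.79 and 7.66 in the controls (−0.29, SE 0.11, adjusted p = 0.247). Neither gene had overlapping groups, and neither passed. DNAJB9 had 8.77, 8.14 and 8.52 with fibrils, against 8.29, 8.11 and 8.32 in the controls (0.24, SE 0.13, adjusted p = 0.462). Its fibrillar replicate 2 lay within the controls.

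In oxidative folding, ERO1A, which recharges protein disulfide isomerase with oxidising power, had 8.92, 8.91 and 9.04 with fibrils, against 8.51, 8.84 and 8.50 in the controls (0.34, SE 0.11, adjusted p = 0.17). TXNDC12, a small thioredoxin-like protein of the ER, had 10.29, 10.43 and 10.31 with fibrils, against 10.11, 10.18 and 10.04 in the controls (0.23, SE 0.08, adjusted p = 0.18). Both were apart between the groups. The dimmer probe sets of ERO1A changed by −0.12 and −0.16. PDIA3, the isomerase that works with calnexin and calreticulin, was singled out after its values were seen, since its fibrillar arrays lay far apart. It had 11.01, 9.75 and 10.59 with fibrils, against 10.92, 10.98 and 11.06 in the controls (−0.54, SE 0.19, adjusted p = 0.21). Fibrillar replicate 2 lay more than 1 log2 unit under the controls and replicate 3 also lay under them, while replicate 1 lay among them. The dimmer probe sets of PDIA3 changed by −0.09 and 0.07 with fibrils. Without fibrillar replicate 1 PDIA3 was called lower (−0.82, adjusted p = 0.021), in a fit that called 43 of all genes higher and 44 lower.

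In ER-associated degradation, EDEM1 had 9.03, 8.78 and 9.02 with fibrils, against 8.66, 8.70 and 8.65 in the controls (0.27, SE 0.08, adjusted p = 0.143). The groups did not overlap, and without fibrillar replicate 2 EDEM1 was called (0.35, adjusted p = 0.0441). That fit called 140 of all genes higher and 45 lower, against 94 and 46 with every array. HERPUD1 had 9.09, 8.86 and 9.01 with fibrils, against 8.86, 8.66 and 8.80 in the controls (0.21, SE 0.09, adjusted p = 0.295). Fibrillar replicate 2 was the lowest fibrillar array for EDEM1, HERPUD1, EIF2AK3, XBP1 and DNAJB9, and it had the lowest 3′ less 5′ value of the 3. The part of that value in these differences was not tested.

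**Figure D3:**
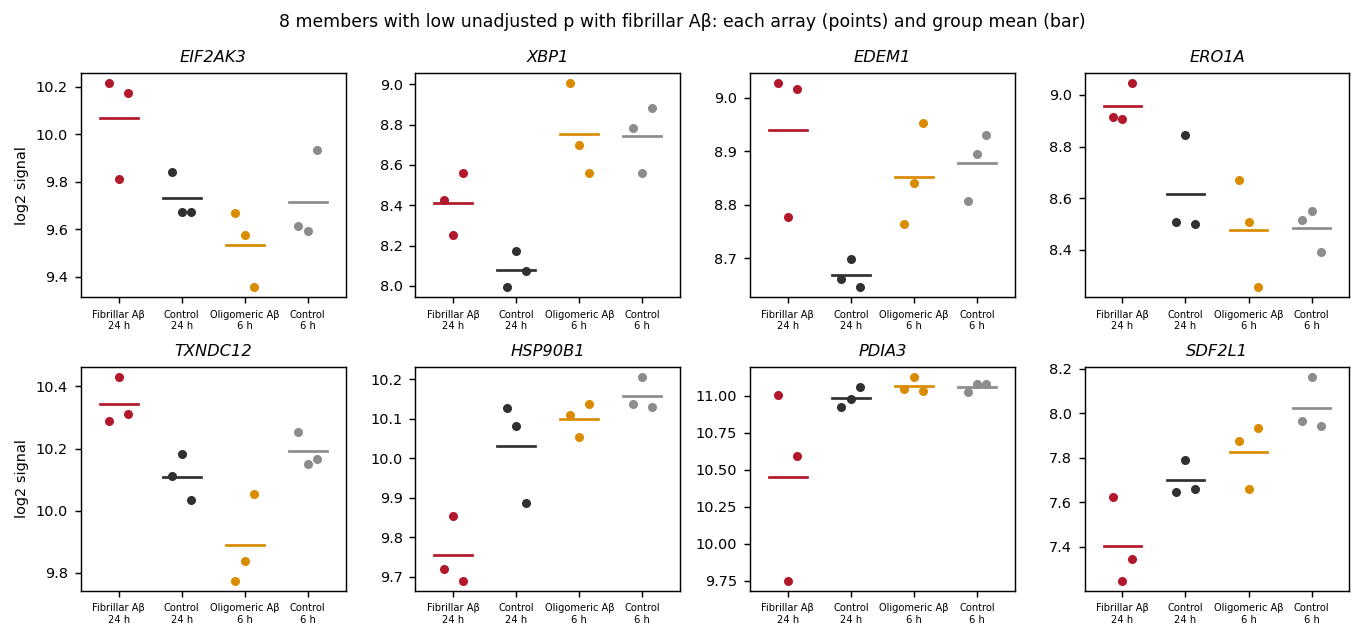
Log2 signal on each array (points) and group mean (bar) for 8 genes with low unadjusted p with fibrillar Aβ, none called. In each panel the groups are, left to right, fibrillar Aβ at 24 h, control at 24 h, oligomeric Aβ at 6 h and control at 6 h, each of 3 arrays. PDIA3 on fibrillar replicate 2 is at 9.75, and the 24 h controls are at 10.92 to 11.06.

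With oligomeric Aβ, 0 of the 34 genes were called against the 6 h controls (0%), and 0 of all tested genes were (0%). By limma 1 gene of the list was under an unadjusted p of 0.05, 2.94% against 2.78% of all genes, so the list did not stand out from the genes tested. The median change was −0.03, and 21 of 34 means were lower (61.8%, 51.8% of all genes). All oligomeric arrays lay below all controls for 3 genes (8.82%, 3.76% of all genes) and above for 0 (0%, 3.6% of all genes).

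TXNDC12 was the gene under that unadjusted p, with 9.77, 9.84 and 10.05 with oligomers, against 10.25, 10.15 and 10.17 in the 6 h controls (−0.30, SE 0.08, adjusted p = 1.0). SEC61B had 10.58, 10.86 and 10.88 with oligomers, against 10.91, 10.90 and 11.05 in the controls (−0.18, SE 0.09). SDF2L1 had 7.88, 7.66 and 7.93 with oligomers, against 7.96, 8.16 and 7.94 in the controls (−0.20, SE 0.11). In these 3 genes the groups did not overlap, though for SDF2L1 and SEC61B by a narrow gap, and none passed the adjusted threshold.

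The sensors and BiP gave no call with oligomers. EIF2AK3 had 9.67, 9.57 and 9.36 with oligomers, against 9.61, 9.59 and 9.93 in the controls (−0.18, SE 0.12), overlapping groups. HSPA5 had 12.23, 11.99 and 12.14 with oligomers, against 12.04, 12.14 and 12.07 in the controls. Its change was 0.04 (SE 0.07), with a 95% interval of −0.11 to 0.19. The changes were 0.01 for XBP1 (SE 0.12), −0.06 for ATF6 (SE 0.10), 0.14 for ERN1 (SE 0.14), −0.06 for HSP90B1 (SE 0.07), 0.07 for DNAJB9 (SE 0.13) and 0.06 for HERPUD1 (SE 0.09).

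The fibrillar less the oligomeric response was tested as a difference of the changes. By limma 0 of the 34 genes were called (0%, where 0.0425% of all genes were), and 5 were higher at an unadjusted p under 0.05 (14.7%, 5.05% of all genes). The median difference was 0.15 over the list and 0.01 over all genes. TXNDC12 differed by 0.54 (SE 0.11, adjusted p = 0.0996), and it was higher on every fibrillar array than on every 24 h control and lower on every oligomeric array than on every 6 h control. A dimmer probe set, shared by TXNDC12 and other symbols, differed by −0.09 (adjusted p = 0.952 over all probe sets). EIF2AK3 differed by 0.52 (SE 0.16, adjusted p = 0.319), MANF by 0.31 (SE 0.12, adjusted p = 0.437) and EDEM1 by 0.30 (SE 0.12, adjusted p = 0.464). For HSPA5 the difference was 0.02, with a 95% interval of −0.19 to 0.23.

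**Figure D4:**
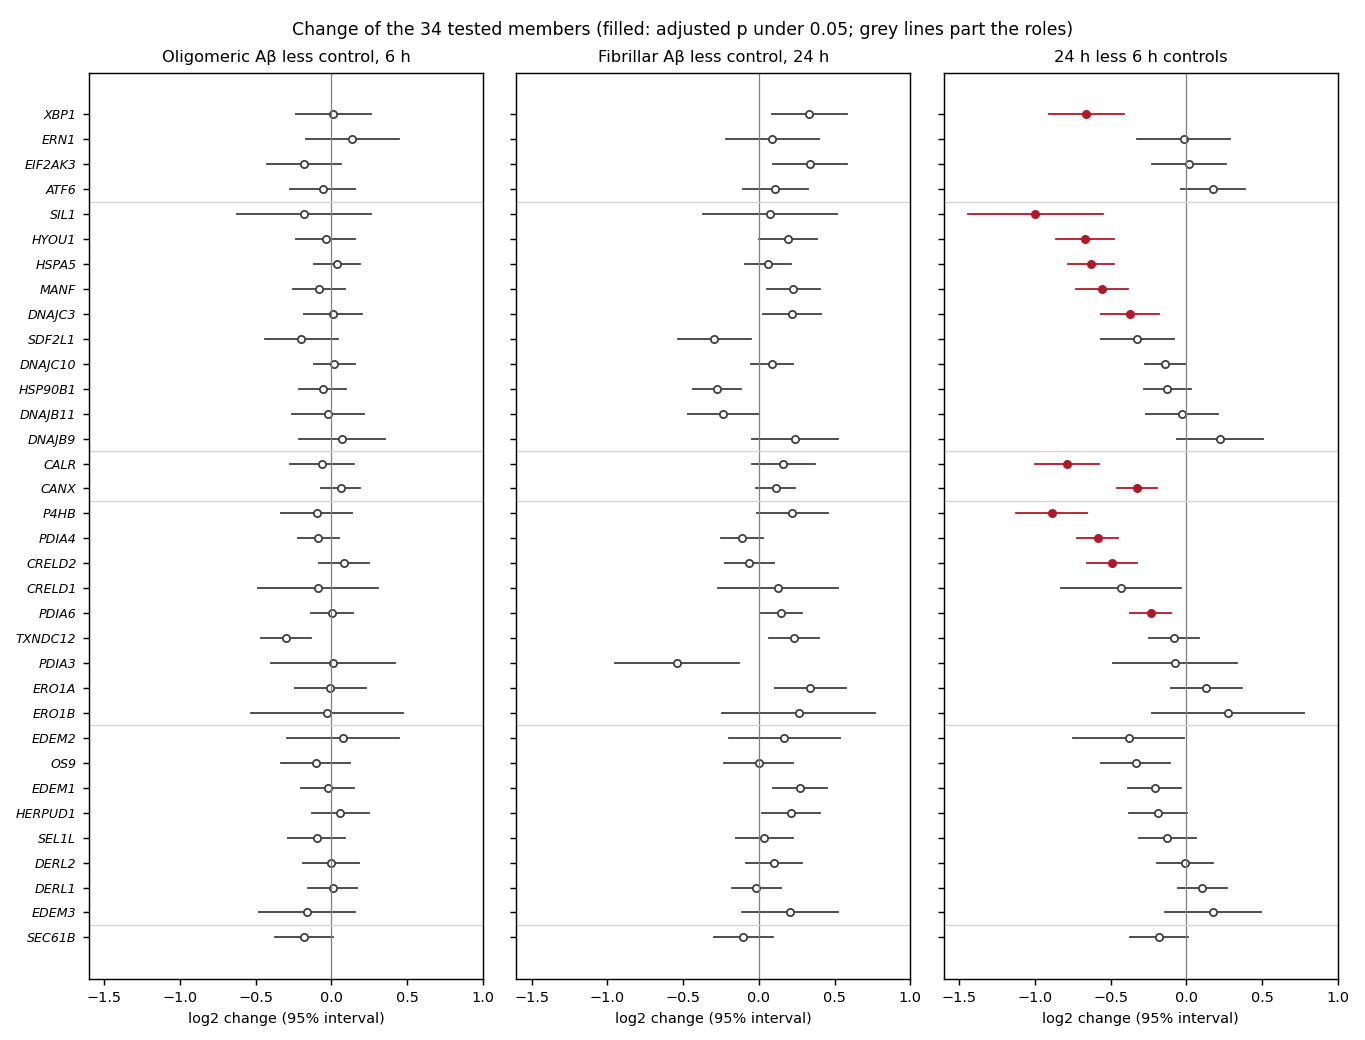
Change on the log2 scale (point) and 95% interval (line) of the 34 tested genes for oligomeric Aβ less control at 6 h, fibrillar Aβ less control at 24 h, and 24 h less 6 h controls, with 3 arrays a group. Filled points have an adjusted p under 0.05. The 12 filled points lie in the right panel, all below 0, among them HSPA5 at −0.63 and SIL1 at −1.0.

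The rest of the pathway was read from 7 lists of neighbouring genes. Oligomeric Aβ gave 0 calls in all 7 (0% of all genes were called). Among 18 genes of the PERK arm, ATF4 and CHOP, 15 were tested, and with fibrillar Aβ 5 rose and 0 fell, at a median change of 0.33, with 14 of 15 means higher. Of all genes 0.798% were called higher and 0.391% lower, and 49.9% had the higher mean. The 5 are DDIT3, ATF3, CEBPB, ASNS and PPP1R15B. DDIT3 had the lower mean with oligomers (−0.55, SE 0.22, adjusted p = 1.0), and its fibrillar less its oligomeric change was 1.5 (SE 0.31, adjusted p = 0.0987). In the list of 34 folding genes 0 passed in the same fit, and that difference between the lists was not tested.

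DDIT3, the transcription factor CHOP, had 7.03, 6.17 and 6.65 with fibrils, against 5.68, 5.44 and 5.87 in the 24 h controls (0.95, SE 0.22, adjusted p = 0.0454). ATF3, a stress-induced transcription factor, had 8.27, 6.70 and 7.42 with fibrils, against 6.27, 6.35 and 6.46 in the controls (1.1, SE 0.26, adjusted p = 0.0474). CEBPB, a transcription factor that pairs with ATF4 and CHOP, had 8.85, 8.09 and 8.52 with fibrils, against 7.85, 8.04 and 7.70 in the controls (0.62, SE 0.14, adjusted p = 0.0457). In all 3 the groups were apart, and fibrillar replicate 2 was the lowest and replicate 1 the highest of the fibrillar arrays, the order of their 3′ less 5′ values.

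ASNS, asparagine synthetase, had 9.83, 9.67 and 9.72 with fibrils, against 9.34, 9.41 and 9.35 in the controls (0.37, SE 0.08, adjusted p = 0.0321). PPP1R15B, a subunit of the phosphatase that undoes PERK's mark, had 9.73, 9.57 and 9.71 with fibrils, against 9.42, 9.32 and 9.28 in the controls (0.33, SE 0.07, adjusted p = 0.0398). ATF4 itself, which is raised mainly by translation, had 10.15, 10.05 and 9.91 with fibrils, against 9.76, 9.76 and 9.86 in the controls (0.24, SE 0.09, adjusted p = 0.213). Each of the 5 calls stood in 1 of 6 fits that left out an array, the fit without fibrillar replicate 2. None of the 5 stood with the 3′ less 5′ value as a covariate, where the adjusted p lay between 0.0915 for ASNS and 0.225 for CEBPB. In the 6 h controls ASNS had 9.68, 9.76 and 9.79, values that overlap the fibrillar arrays. CEBPB and DDIT3 with fibrils overlapped the 6 h controls as well. For ATF3 and PPP1R15B every fibrillar array lay above every 6 h control. The fibrillar arrays were not tested against the 6 h controls.

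**Figure D5:**
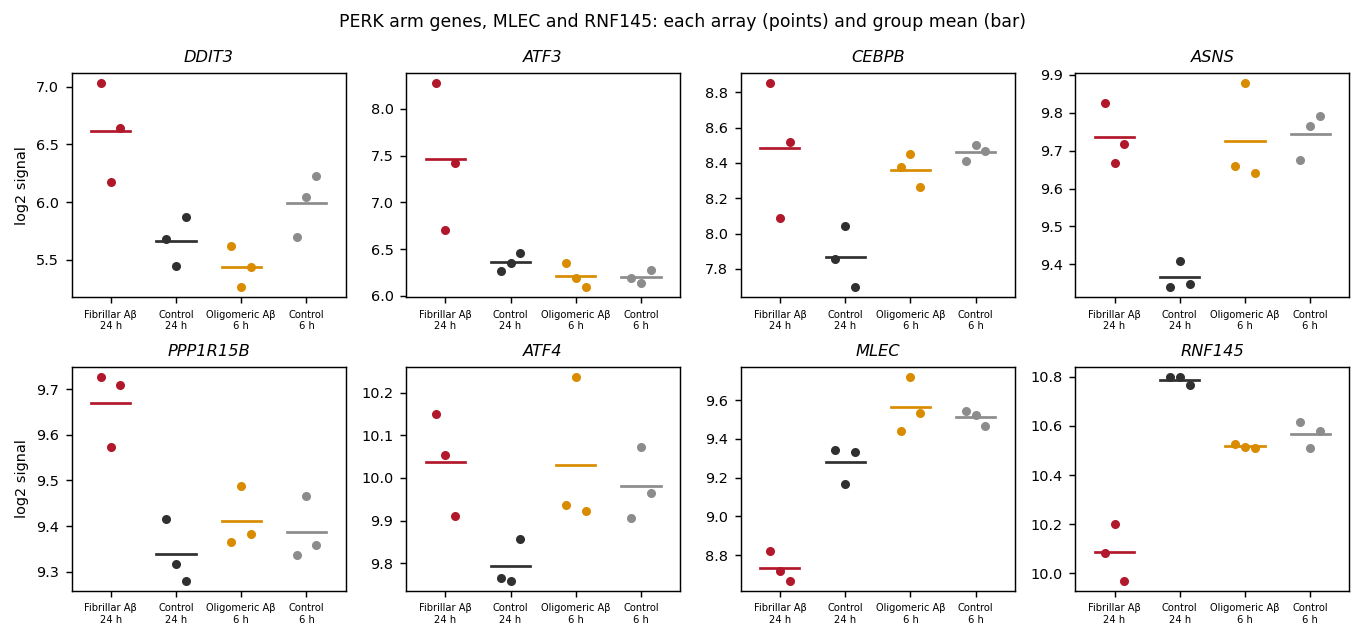
Log2 signal on each array (points) and group mean (bar) for 6 genes of the PERK arm, the lectin gene MLEC and the ligase gene RNF145. In each panel the groups are, left to right, fibrillar Aβ at 24 h, control at 24 h, oligomeric Aβ at 6 h and control at 6 h, each of 3 arrays. RNF145 lies between 9.97 and 10.20 with fibrils and between 10.77 and 10.80 in the 24 h controls.

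Outside the PERK arm, 2 genes were called with fibrils and both fell, each the only call in its list. Of all genes 1.19% were called, 0.798% higher and 0.391% lower, so the 2 calls are not read as a result about these lists. RNF145, an ER membrane ubiquitin ligase in the list of other degradation genes (27 of 30 tested), had 10.08, 10.20 and 9.97 with fibrils, against 10.80, 10.80 and 10.77 in the controls (−0.70, SE 0.07, adjusted p = 0.000119). Its response to fibrils was also lower than that to oligomers (−0.65, SE 0.09, adjusted p = 0.0219), a call that stood in 3 of 12 fits without an array. MLEC, malectin, which binds glucose-bearing N-glycans in the ER, had 8.82, 8.72 and 8.67 with fibrils, against 9.34, 9.17 and 9.34 in the controls (−0.55, SE 0.08, adjusted p = 0.00648), in a list of N-glycosylation and the lectin cycle (23 of 24 tested). The groups of both genes did not overlap. Against the 24 h controls the call of RNF145 stood in every alternative, and that of MLEC in 5 of 6 fits without an array.

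The other 4 lists had 0 calls with fibrils, and the gene of smallest p in each is given. TRAM1, which helps chains enter at the translocon, changed by 0.21 (adjusted p = 0.17) in a list with 22 genes tested. SERPINH1, the collagen chaperone, changed by −0.43 (adjusted p = 0.0946) among 35 other folding enzymes and chaperones. UFM1, a ubiquitin-like modifier of ER proteins, changed by 0.24 (adjusted p = 0.194) among 18 other regulators of the response. SAR1A, the GTPase that starts COPII coats, changed by −0.20 (adjusted p = 0.165) among 22 genes of ER exit.

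Between the 24 h and the 6 h controls these lists gave 20 calls lower and 4 higher, where 7.92% of all genes were called lower and 3.76% higher, and the genes named here were chosen after their values were seen. Lower at 24 h were 6 of 22 genes of ER exit, with COPG1, a coat subunit, at −0.63 (adjusted p = 0.0018), and 3 of 22 of the translocon list, with SRPRA, the docking receptor of the signal recognition particle, at −0.85 (adjusted p = 0.0046). In N-glycosylation 3 of 23 were lower, with RPN1, a subunit of the oligosaccharyltransferase, at −0.55 (adjusted p = 0.000147). In the PERK arm 3 of 15 were lower and 1 higher. Of 27 other degradation genes 2 were lower, with VCP, the extraction ATPase, at −0.53 (adjusted p = 0.00111), and 1 was higher. Of 35 other folding enzymes 1 was lower and 2 were higher, and of 18 other regulators 2 were lower.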

How the data were processed

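RNA from SH-SY5Y cells was measured on 12 arrays in 4 groups of 3. Signals per probe set were deposited on a log2 scale, made by the authors with MAS5 per the submitters' processing notes, with no version given. The trimmed mean of the linear signal (2% to 98%) was equal on all arrays, so no further normalization was made. Arrays give no counts, and their number limits the precision: the median SE of a change was 0.09 over the 34 genes. Symbols came from the platform annotation (41091 probe sets with 1 symbol, 1801 with several, 11721 with none, 62 controls) and were updated by gene ID. Genes with a mean at or above the median of probe sets (log2 3.78) were tested.

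A group-means model over all 12 arrays was fitted in limma 3.58.1 (R 4.3.3) with a prior variance that follows the level, and p-values were adjusted by Benjamini and Hochberg's method over 11774 genes. The procedure was tested on simulated data for the fibrillar comparison. Of 100 genes changed 1.5-fold it recovered 50%, and of 100 changed 2-fold 71%, with 9 false calls each. Changes of such size can thus be missed. Same-numbered replicates had correlations of deviations of −0.02 to 0.09. With fibrils they were 0.03 to 0.07, against −0.06 to 0.002 for different numbers. Between the controls they were 0.04 to 0.08, against −0.05 to −0.01. With oligomers they were −0.02 to 0.09, against −0.12 to 0.09. Same numbers thus lay higher with fibrils and between the controls, though all values were small. Numbers were not used as pairs in the fit reported, and the replicate block was run as an alternative. Members, lists, tests and alternatives were chosen with earlier results of these data known. Named were all called genes, the 6 smallest p with fibrils, the 4 smallest in each other comparison, BiP, HSP90B1, DNAJB9, HERPUD1, SDF2L1, XBP1 and the sensors, and per list the genes called with Aβ or the smallest p. Promoter windows are RefSeq's, GRCh38.p14. No column was left out. Alternatives were quantile normalization, median centring, other filters, the mean of probe sets, log2 of the signal plus 16, other prior variances, array weights, the 2 groups alone, the replicate block, the 3′ less 5′ covariate and each array left out.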

Additional observations from a re-analysis of the deposited data

Results flagged for a closer look

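TXNDC12, the thioredoxin-like ER gene, had changes of opposite sign in the 2 responses, though their difference was not called. It was higher on every fibrillar array than on every 24 h control and lower on every oligomeric array than on every 6 h control, and the fibrillar less the oligomeric change was 0.54. That difference was tested in limma and did not pass (SE 0.11, adjusted p = 0.0996). It was called with median centring (0.67, adjusted p = 0.0455) and with array weights (0.56, adjusted p = 0.037). Median centring moved the median difference over all genes to 0.15 and called 12 of all genes higher and 1 lower. Array weights called 18 higher and 9 lower, against 1 and 4 as reported. A dimmer probe set, shared by TXNDC12 and other symbols, did not show it. That probe set changed by −0.01 with fibrils and 0.09 with oligomers, a difference of −0.09 (adjusted p = 0.952 over all probe sets).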

How the results depend on the processing

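Counts of calls among the 34 genes were compared over alternative settings. With oligomers all 18 alternatives gave 0. With fibrils 14 of 18 gave 0, array weights gave 1 (HSP90B1 lower), the 3′ less 5′ covariate gave 1 (PDIA3 lower), and leaving out an array gave 0 to 2. Over all genes array weights called 181 higher and 87 lower with fibrils, and the covariate 19 and 20. Without fibrillar replicate 2 these were 140 and 45, against 94 and 46 as reported. For the difference of the responses 21 of 23 gave 0, and median centring and array weights gave 1 each, TXNDC12. For 24 h less 6 h, leaving out an array gave 10 to 12 and the other settings 8 to 18: 18 with median centring, which moved the median of all genes to −0.15 (and that of the difference of responses to 0.15), and 8 each with the mean of probe sets and the covariate. Over all genes median centring called 140 higher and 1768 lower between the controls (443 and 932 as reported) and 143 and 23 with fibrils (94 and 46 as reported). Of the 12 calls 10 stood in every fit without an array and 6 in every alternative. With the mean of probe sets P4HB was −0.14 (adjusted p = 0.479), CANX −0.06, XBP1 −0.30 and DNAJC3 −0.15, and the cause was not tested. TRAM1, between the controls, was 0.33 with the mean of probe sets. On the probe set used it had 9.73, 9.66 and 9.67 at 24 h, against 9.66, 9.79 and 9.68 at 6 h. Those groups overlapped, with a slightly lower mean at 24 h. The replicate block gave 0, 0, 0 and 13 calls for oligomers, fibrils, their difference and 24 h less 6 h. Over all genes it called 123 higher and 61 lower with fibrils, and 533 higher and 1037 lower between the controls, more than as reported. For the difference of the responses it called 0 higher and 3 lower (1 and 4 as reported). Some other settings called fewer of all genes with fibrils than the 94 higher and 46 lower reported. A constant prior variance called 4 higher and 3 lower, the 2 groups alone 22 and 13, and the mean of probe sets 33 and 29. Leaving out 24 h control replicate 1 gave 8 and 6. The calls with fibrils thus depend on these choices. The number of arrays and the spread between replicates limit small changes.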

Other observations

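Genes without a probe set of their own were read from probe sets shared with other symbols, with p-values adjusted over the 27307 probe sets past the filter. Between the 24 h and the 6 h controls the shared probe set of TXNDC5, a disulfide isomerase, changed by −0.27 (adjusted p = 0.0731), that of SYVN1, the ligase of ER-associated degradation also called HRD1, by −0.58 (adjusted p = 0.131) and that of PDIA5 by −0.09 (adjusted p = 0.69). With fibrils these changes were −0.14, −0.01 and 0.01, and none was called. The 2 shared probe sets of HSP90B1 changed by −0.36 each between the controls (adjusted p = 0.00374 and 0.0464), where its own changed by −0.13.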
